A study of Mus musculus with 5 samples.

Results

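The cells described here are a state of the hormone-sensing luminal epithelium of the mouse mammary gland, chosen by RNA of Upk3a (uroplakin 3A, a membrane protein of the urinary tract lining) and Fgb (the beta chain of fibrinogen, a clotting protein). A cell was a member if its Upk3a and Fgb counts added up to 2 or more unique molecular identifiers (UMIs, the counted RNA molecules) and if it had 300 genes or more and at most 20% mitochondrial UMIs. It also needed 2 or more UMIs of Krt8 and Krt18, no UMI of Ptprc or Pecam1, and fewer than 30 UMIs of Csn3, Trf and Wfdc18 per 10000. Fewer than 3 of the cell cycle genes Top2a, Birc5, Ube2c, Cenpf, Ccnb2 and Mki67 could be detected. By this rule 1335 cells were members, of 16531 luminal cells (Krt8 and Krt18 present, Ptprc and Pecam1 absent) and 31261 cells past the quality limits in 4 gland libraries. The whole series held 34526 barcodes, of which 33551 passed those limits.

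Single-cell 3' RNA libraries were made from dissociated glands after lymph nodes had been removed. BPK mice carried Krt14cre together with Trp53 flox/flox and Brca1 wt/flox. They received 12 injections into the milk ducts of 4NQO, a quinoline that damages DNA, and gave 2 libraries called BPK 4NQO replicates 1 and 2. PK mice, in which Brca1 is wt/wt beside the same Trp53 flox/flox and Krt14cre, received 12 injections of 4NQO and gave 1 library. BPK mice given 12 injections of the PBS/PEG vehicle gave 1 library, and a BPK tumor that formed after 24 injections of 4NQO gave the fifth. All groups therefore carried the floxed Trp53 alleles and Krt14cre, and the Krt14 promoter, active in basal mammary cells and in the embryonic epithelium, drove Cre. The labels do not say whether the BPK 4NQO libraries came from separate animals, so p-values measure the spread between these libraries, which may be technical.

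Hormone-sensing luminal cells carry the receptors for estrogen, progesterone and prolactin and pass those signals on to neighbouring cells through secreted factors such as amphiregulin, Rank ligand and Wnt4. They differ from alveolar luminal cells, which make milk. Uroplakins are best known as the plaque proteins of the bladder surface. The 3 fibrinogen chains are made mainly by the liver, and their genes lie side by side.

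The gland libraries held 7118 to 9610 barcodes and 27383717 to 64169843 UMIs, and the tumor library 2654 barcodes and 58754764 UMIs. Members were deeper than the hormone-sensing cells they are compared with: their median was 7287 and 6170 UMIs in BPK 4NQO replicates 1 and 2, 4477 in PK 4NQO and 6439 in BPK vehicle, against 5263, 3952, 3549 and 5290 UMIs in the comparison cells of the same libraries. A deeper cell reaches 2 marker UMIs more easily. BPK 4NQO replicate 2 stood apart from the other libraries in its barcodes, of which it shared at most 2 with any of them, while every pair of the others shared 26 to 107. The labels give the same library kit for all 5, and whether replicate 2 was made with another was not tested. No barcode of a member occurred among the members of another library. A doublet caller marked 4.87% to 6.09% of members per gland library, against 5.52% to 8.17% of luminal cells.

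The label of a hormone-sensing state was checked mainly on genes the rule did not use. Prlr, the prolactin receptor, had a UMI in 99.3% and 97.5% of members in BPK 4NQO replicates 1 and 2, in 98.5% in PK 4NQO and in 98.8% in BPK vehicle. In fibroblasts of the same libraries, which should lack it, the share was 4.06%, 7.84%, 4.05% and 2.43%, at median depths of 2550, 3614, 1465 and 2137 UMIs. With every cell thinned to 2000 UMIs, Prlr was still found in 85.1% to 95% of members. Esr1, the estrogen receptor, had a UMI in 28.9% to 41.6% of members, against 3.74% to 11.6% of fibroblasts, and Pgr, the progesterone receptor, in 36.8% to 70.2%, against 1.01% to 6.7%. Against other luminal cells the contrast in Pgr was smaller in the 4NQO libraries and went the other way in BPK vehicle. In BPK 4NQO replicates 1 and 2, PK 4NQO and BPK vehicle, Pgr was at 160, 354, 135 and 72.3 counts per 1000000 UMIs in members. In luminal cells with no Upk3a or Fgb UMI, Prlr-rich cells included, it was at 143, 330, 121 and 83. Cited1, a transcriptional co-regulator and the third marker that had been proposed for the state, had a UMI in 95.1%, 68.6%, 87.3% and 93.8% of members of BPK 4NQO replicate 1, BPK 4NQO replicate 2, PK 4NQO and BPK vehicle. The replicate 2 library was the low one. In the comparison cells of the same libraries the Cited1 share was 78.3%, 37%, 80.9% and 79.8%. Markers of other cell types were low in members: the summed level of 6 fibroblast genes was 262 to 506 counts per 1000000 UMIs (CPM), that of 6 macrophage genes 6.7 to 41.1 CPM, and all 4 B cell genes were at 0 in every gland library. Markers of the alveolar kind summed to 599 to 1104 CPM over 10 genes, against 727 to 1036 CPM in the comparison cells. This sum includes Csn3, Trf and Wfdc18, which the rule limits in members and comparison cells alike. Its likeness between them was therefore partly set in advance.

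The promoters of genes on which the results turn are shown here: Upk3a and Fgb chose the members, and Fgg, Mt1 and Mt2 were among the genes that differed from other hormone-sensing cells. Fibrinogen genes and metallothionein genes are also neighbours on their chromosomes. Each line gives the 250 bases before the RefSeq start site on the gene's strand (RefSeq, GRCm38.p6). Capitals mark TTGCNNAA, a core of sites bound by C/EBP factors, in the first 3 genes, and TGCACNC or TGCGCNC, the core of metal response elements, in the metallothionein genes, searched on both strands.
Upk3a, chr15:85016891-85017140, plus strand: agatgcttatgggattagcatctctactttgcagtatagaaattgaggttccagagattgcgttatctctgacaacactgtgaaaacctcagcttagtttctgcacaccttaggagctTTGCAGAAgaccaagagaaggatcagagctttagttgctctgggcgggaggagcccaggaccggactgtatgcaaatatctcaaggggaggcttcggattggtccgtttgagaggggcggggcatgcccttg
Fgb, chr3:83049864-83050113, minus strand: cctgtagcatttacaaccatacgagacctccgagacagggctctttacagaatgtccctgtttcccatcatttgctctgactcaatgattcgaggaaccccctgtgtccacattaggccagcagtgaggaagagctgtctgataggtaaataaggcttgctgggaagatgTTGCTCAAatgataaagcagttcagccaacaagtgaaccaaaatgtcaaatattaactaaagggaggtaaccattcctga
Fgg, chr3:83007474-83007723, plus strand: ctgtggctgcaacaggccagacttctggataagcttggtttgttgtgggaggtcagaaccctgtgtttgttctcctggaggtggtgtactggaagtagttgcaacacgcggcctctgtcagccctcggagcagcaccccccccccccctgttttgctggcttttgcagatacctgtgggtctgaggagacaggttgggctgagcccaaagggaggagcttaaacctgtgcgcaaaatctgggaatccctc
Mt1, chr8:94178839-94179088, plus strand: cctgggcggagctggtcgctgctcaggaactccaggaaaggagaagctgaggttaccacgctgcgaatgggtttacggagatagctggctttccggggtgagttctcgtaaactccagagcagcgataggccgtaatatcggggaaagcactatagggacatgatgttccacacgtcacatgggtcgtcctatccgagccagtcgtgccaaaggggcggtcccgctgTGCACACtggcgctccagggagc
Mt2, chr8:94172368-94172617, plus strand: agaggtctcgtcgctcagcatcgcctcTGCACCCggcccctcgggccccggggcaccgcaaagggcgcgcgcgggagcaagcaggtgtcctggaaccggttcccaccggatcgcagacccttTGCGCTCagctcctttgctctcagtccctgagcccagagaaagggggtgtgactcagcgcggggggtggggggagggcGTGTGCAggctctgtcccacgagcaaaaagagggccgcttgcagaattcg
Upk3a and Fgb each held 1 match of TTGCNNAA, and so did 9.56% of all 32851 promoter windows of the same length. Fgg held none, which says only that these letters are not in this window. Mt1 held 1 and Mt2 held 3 matches of the metal response cores, which 10.4% (TGCACNC) and 12.5% (TGCGCNC) of all windows held. The fibrinogen genes lie within one stretch of chromosome 3 (mm10, GENCODE M21): Fgg at 83007724 to 83015049, Fga at 83026076 to 83033627 and Fgb at 83040141 to 83049863 on the opposite strand. Mt2 lies at 94172664 to 94173568 and Mt1 at 94179082 to 94180327 on chromosome 8. Other genes described later lie on chromosome 15 (Upk3a, 85017141 to 85022547), X (Pir, 164269371 to 164373011), 2 (Itih2, 10094593 to 10131396), 9 (Fxyd2, 45399669 to 45410278) and 5 (Bmp3, 98854415 to 98884396, and Areg, 91139599 to 91148432).

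Members fell into cells with both marker RNAs and cells with one of them. UMIs of both genes were present in 33.7% and 28.1% of members in BPK 4NQO replicates 1 and 2, in 41.6% in PK 4NQO and in 47.2% in BPK vehicle. Upk3a alone placed 43.5%, 13.2%, 38% and 26.2% of members of the same libraries in the state, and Fgb alone 22.8%, 58.7%, 20.4% and 26.6%. BPK 4NQO replicate 2 was thus mostly Fgb-only cells, and the other BPK 4NQO library leaned to Upk3a. The summed level of Upk3a in members was 536 and 351 CPM in BPK 4NQO, 703 CPM in PK 4NQO and 859 CPM in BPK vehicle, and that of Fgb was 354 and 1134 CPM in BPK 4NQO, 520 CPM in PK 4NQO and 727 CPM in BPK vehicle. Both genes chose the members, so these levels are given with no test. Across luminal cells within the other limits of the rule, a Upk3a UMI was found in 49.6%, 28.3%, 55.5% and 58.1% of cells with 2 or more Fgb UMIs in BPK 4NQO replicate 1, BPK 4NQO replicate 2, PK 4NQO and BPK vehicle, against 10.4%, 3.54%, 15% and 13.3% of cells with no Fgb UMI. In fibroblasts the share with a Upk3a UMI was 0.126% to 1.42%.

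**Figure D1:**
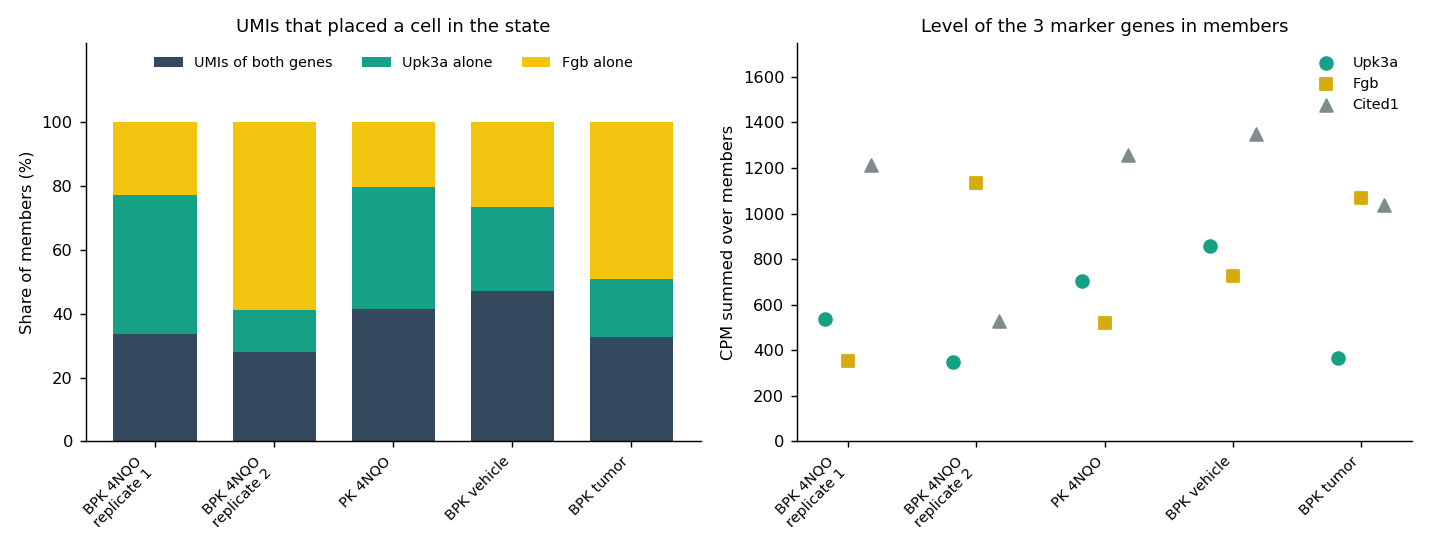
Left: share of members (%) with UMIs of both marker genes, of Upk3a alone or of Fgb alone in each library. Right: CPM of Upk3a, Fgb and Cited1 summed over members. BPK 4NQO replicate 2 has 58.7% Fgb-only members and the lowest Cited1 level of the 5 libraries, 530 CPM.

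Near the threshold, 145, 59, 168 and 199 luminal cells of BPK 4NQO replicate 1, BPK 4NQO replicate 2, PK 4NQO and BPK vehicle had a marker sum of 1 UMI and stayed outside, while 65, 24, 84 and 91 cells had a sum of 2 and were members. The median sum in members was 4, 6, 4 and 7 UMIs, and the highest 211. The limit on milk genes left 20, 10, 26 and 53 cells just outside, at 30 to 40 UMIs per 10000, and kept 10, 10, 23 and 43 just inside, at 20 to 30.

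The share of the state was lower in the 4NQO libraries than in the vehicle library. Members made up 6.33% (exact 95% Clopper-Pearson interval 5.61% to 7.11%) and 6.29% (5.25% to 7.47%) of luminal cells in BPK 4NQO replicates 1 and 2, 7.43% (6.69% to 8.23%) in PK 4NQO and 10.4% (9.66% to 11.2%) in BPK vehicle. These intervals cover counting error only. The log2 ratio of the BPK 4NQO share was -0.73 against BPK vehicle and -0.24 against PK 4NQO. No test is given, because the state had been picked out after its share was seen to differ between these libraries. Set against hormone-sensing cells alone (members plus the Prlr-positive cells defined in the next comparison), members were 19.3% and 20.1% in BPK 4NQO, 29.8% in PK 4NQO and 43.2% in BPK vehicle. Cells with 10 or more marker UMIs were 1.4% and 2.03% of luminal cells in BPK 4NQO, 1.18% in PK 4NQO and 3.81% in BPK vehicle. After thinning to 2000 UMIs a cell, which left out 256, 436, 359 and 236 shallower luminal cells of BPK 4NQO replicate 1, BPK 4NQO replicate 2, PK 4NQO and BPK vehicle, members were 3.62% and 5.38% in BPK 4NQO, 4.81% in PK 4NQO and 8.44% in BPK vehicle. At that depth the BPK 4NQO replicates lay on either side of PK 4NQO, while both stayed under BPK vehicle.

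**Figure D2:**
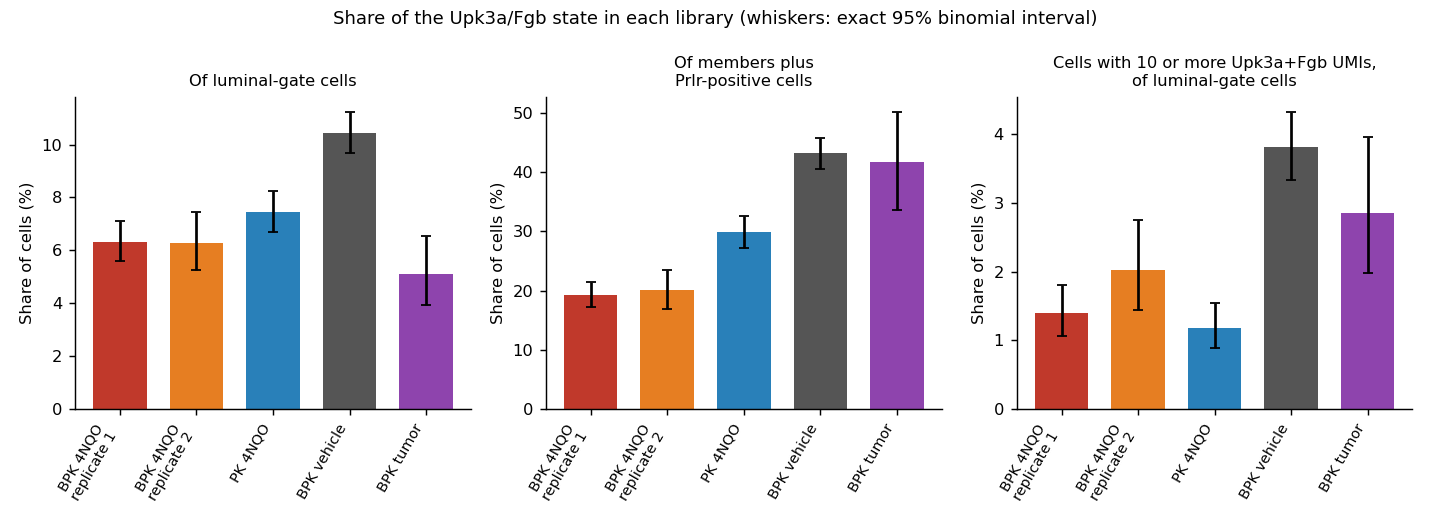
Share of cells (%) in the state in each library, of luminal cells (left), of members plus Prlr-positive cells (middle) and for cells with 10 or more marker UMIs (right); whiskers are exact 95% binomial intervals. BPK vehicle, at 10.4%, 43.2% and 3.81%, is the highest of the 4 gland libraries in every panel.

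To find what else marks the state, members were compared with the other hormone-sensing cells of the same libraries: cells within the same limits, with no Upk3a or Fgb UMI and with 2 or more Prlr UMIs, here called Prlr-positive cells. There were 1119 and 481 of them in BPK 4NQO replicates 1 and 2, 797 in PK 4NQO and 800 in BPK vehicle. Counts were summed per library and cell group and tested with the library as a block. Of 9788 genes tested, 599 (6.12%) passed an adjusted p of 0.05 in edgeR's quasi-likelihood test with Benjamini-Hochberg adjustment, 333 higher (3.4%) and 266 lower (2.72%) in members. DESeq2 called 212, all of them among the 599. The marker genes had first been seen as leading genes of a cluster of these same cells, so the calls describe these libraries and are not independent of how the state was found. Without BPK 4NQO replicate 2 there were 339 calls, of which 316 were among the 599, and without BPK 4NQO replicate 1 there were 369. With both cell groups limited to 3000 to 15000 UMIs a cell there were 395 calls, of which 377 were shared.

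Of the other fibrinogen genes, Fgg, which encodes the gamma chain, was higher in members. It had 308 and 800 CPM in members of BPK 4NQO replicates 1 and 2, 309 in PK 4NQO and 376 in BPK vehicle, against 104, 170, 117 and 102 CPM in Prlr-positive cells of the same libraries. The library values of the 2 cell groups did not overlap. The log2 fold change was 1.81 (SE 0.093), with an adjusted p of 3.49e-10 in edgeR's quasi-likelihood test. A Fgg UMI was present in 53.7% to 70.2% of members and in at most 0.811% of fibroblasts. Fga, the alpha chain gene that lies between them, had 1 UMI in all members together. Of the 12 genes listed as fibrinogen or liver-type secreted proteins, 4 were tested: Fgg was higher, Apoe lower (-0.61), and Hp and Apoc1 did not pass (3.4% of all genes tested were higher and 2.72% lower). Their median log2 fold change was -0.20, while that over all genes tested was 0.005. Alb and Serpina1a had no UMI in either cell group.

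Other genes with large differences were read in every library. Pir (pirin, an iron-binding nuclear protein) had 109 and 66.2 CPM in members of BPK 4NQO, 189 in PK 4NQO and 115 in BPK vehicle, against 28.1, 18.9, 50.4 and 22.2 CPM in Prlr-positive cells. All 4 member values lay above all 4 Prlr-positive values. Its log2 fold change was 2.08 (SE 0.096, adjusted p = 6.77e-11, edgeR). Itih2, a heavy chain of the hyaluronan-binding inter-alpha-trypsin inhibitor, had 83.1, 102, 93.2 and 105 CPM in members of BPK 4NQO replicate 1, BPK 4NQO replicate 2, PK 4NQO and BPK vehicle, against 24.8, 18.9, 46.9 and 28.2 CPM in Prlr-positive cells. The change was 1.72 (SE 0.137, adjusted p = 3.34e-07, edgeR), and the library values of the groups again did not overlap.

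Metallothioneins, which bind zinc and copper, were also higher in members than in Prlr-positive cells. Mt1 had 1861 and 2783 CPM in members of BPK 4NQO replicates 1 and 2, 2250 in PK 4NQO and 5441 in BPK vehicle, against 1095, 991, 1435 and 1592 CPM in Prlr-positive cells. Mt2 had 1089, 1323, 1244 and 3280 CPM in members, against 560, 442, 692 and 797 CPM in Prlr-positive cells of the same libraries in that order. BPK vehicle was the high library for both genes. The log2 fold changes were 1.20 for Mt1 (SE 0.118, adjusted p = 4.78e-06) and 1.39 for Mt2 (SE 0.123, adjusted p = 1.2e-06) in edgeR's test. Luminal cells with no marker UMI had 2319, 1702, 3139 and 4163 CPM of Mt1 and 1369, 752, 1532 and 2075 CPM of Mt2 in the same order. Members were thus lower than those cells in BPK 4NQO replicate 1 and PK 4NQO, and higher in BPK 4NQO replicate 2 and BPK vehicle. Mt1 and Mt2 are close copies of each other, so reads may be split between them, and they are abundant in fibroblasts too, where 73.5% to 86.8% of cells had an Mt1 UMI.

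The 20 genes with the largest increases among 176 eligible ones (past the threshold, 32 CPM or more on average in the higher group, same side in all libraries) also held the keratins Krt6a (1.49) and Krt4 (0.99), both known from stratified epithelia. Signalling genes among them were Inhba, which encodes the subunit of activin A (2.30), Grb14, an adaptor of the insulin receptor (1.38), Ramp1, a partner of the receptor for the peptide CGRP (1.04), Rcan1, a calcineurin regulator (0.99), and Plaur, the urokinase receptor (1.02). Immune genes were the chemokine Cxcl9 (2.48), the alarmin Il33 (0.97) and H2-T22, of MHC class I (0.95). Metabolic genes were Gfpt2 (0.85) of the hexosamine pathway and Sms (0.90), which makes spermine. The others were S100a14 (1.52), Prkcdbp (1.03), a caveolar coat protein, and Basp1 (0.85). Cxcl9 rested on few cells: of 137 UMIs in members of BPK 4NQO replicate 2, 122 were in 1 cell, and BPK 4NQO replicate 1, PK 4NQO and BPK vehicle had 23, 3 and 5 UMIs. For Inhba, 54 of 133 UMIs of BPK 4NQO replicate 2 were in 1 cell, and 9.74%, 14%, 5.6% and 9.54% of members had a UMI in BPK 4NQO replicate 1, BPK 4NQO replicate 2, PK 4NQO and BPK vehicle, against 1.34%, 4.99%, 1.88% and 2.88% of Prlr-positive cells. Krt6a had a UMI in 7.67% to 23% of members and in 1.88% to 7.9% of Prlr-positive cells. The increases were not all alike in size across libraries: H2-T22 differed by 0.10 (log2 CPM) in BPK 4NQO replicate 2 and by 1.45 in BPK vehicle.

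Fxyd2, a regulatory subunit of the sodium-potassium pump, was the best supported decrease. It had 42.6 and 57.1 CPM in members of BPK 4NQO replicates 1 and 2, 25.3 in PK 4NQO and 68.6 in BPK vehicle, against 398, 539, 239 and 443 CPM in Prlr-positive cells. The highest member value was under the lowest Prlr-positive value, and the log2 fold change was -2.99 (SE 0.092, adjusted p = 7.68e-14, edgeR). Bmp3, a growth factor of the BMP family, had 10.4, 5.71, 10.2 and 9.56 CPM in members of BPK 4NQO replicate 1, BPK 4NQO replicate 2, PK 4NQO and BPK vehicle, against 37, 55.4, 41.4 and 56.4 CPM in Prlr-positive cells (log2 fold change -2.30, SE 0.164, adjusted p = 6.1e-08). Enzymes among the decreases were Aoc1, which breaks down histamine (-1.67), Ido1, which breaks down tryptophan (-1.51), and the dipeptidase Dpep2 (-1.39). For Ido1 the level itself varied by library, at 109 and 134 CPM in members of BPK 4NQO, 21.6 in PK 4NQO and 19.1 in BPK vehicle, against 371, 283, 61.7 and 62.6 CPM in Prlr-positive cells.

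The other decreases among the 12 largest were Wfdc12 (-3.14), Mdga2 (-1.91), Retnla (-1.72), Fstl1 (-1.36), Ltf, which encodes lactoferrin (-1.32), Galnt18 (-1.26) and Fmnl2, an actin-nucleating formin (-1.20). Fstl1 is a stromal transcript here, with a UMI in 64.8% to 85.2% of fibroblasts and in 1.47% to 7.44% of members. The 6 fibroblast genes summed to 263, 506, 279 and 262 CPM in members of BPK 4NQO replicate 1, BPK 4NQO replicate 2, PK 4NQO and BPK vehicle, against 488, 2107, 353 and 525 CPM in Prlr-positive cells, and their part in the decreases was not tested. Wfdc12 was unevenly spread, with a UMI in at most 2.48% of members and 3.14% of Prlr-positive cells of a gland library, and 1 cell held 69% of the Prlr-positive counts in BPK 4NQO replicate 2.

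**Figure D3:**
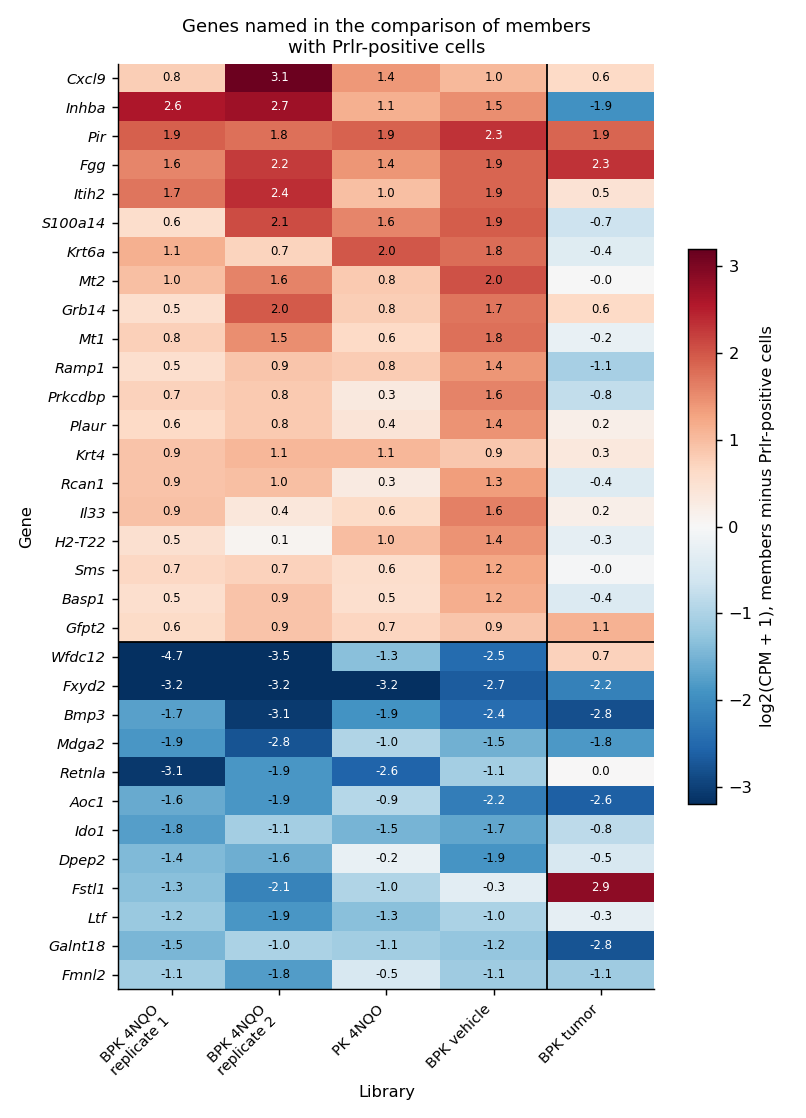
Difference in log2(CPM + 1) between members and Prlr-positive cells for the 20 largest increases (upper block) and the 12 largest decreases (lower block) in each library; the tumor, right of the line, was not part of the test. Fgg, Pir and Gfpt2 are higher and Fxyd2, Bmp3 and Aoc1 lower in members of all 5 libraries, while Inhba and S100a14 are lower in tumor members.

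Some of these genes differed with the amount of marker RNA. In luminal cells with 0, 1, 2 to 3, 4 to 9 and 10 or more Upk3a and Fgb UMIs, Pir had 24.5, 59.7, 86.4, 84.7 and 199 CPM in BPK 4NQO replicate 1, 16.1, 32.7, 28.4, 50.1 and 119 CPM in BPK 4NQO replicate 2, 38.8, 101, 99, 229 and 292 CPM in PK 4NQO and 20.2, 27.9, 49.5, 77.6 and 186 CPM in BPK vehicle. Pir was thus highest in the cells with the most marker RNA in each gland library. Fxyd2 went the other way: cells with 10 or more marker UMIs had 7.97 and 3.4 CPM in BPK 4NQO, 22.9 in PK 4NQO and 11.1 in BPK vehicle, against 297, 348, 173 and 257 CPM in cells with none. Cells just outside the rule, with 1 marker UMI, had Fgg levels of 196 and 428 CPM in BPK 4NQO, 171 in PK 4NQO and 139 in BPK vehicle, and cells just inside, with 2 to 3, had 218, 469, 214 and 220 CPM. Levels also differed with the kind of marker. Fgb-only members had 437 and 924 CPM of Fgg in BPK 4NQO, 566 in PK 4NQO and 526 in BPK vehicle, while Upk3a-only members had 159, 286, 197 and 205 CPM. Pir was at 38.3, 42, 86.2 and 42.2 CPM in Fgb-only members and at 136, 71.5, 152 and 118 CPM in Upk3a-only members of BPK 4NQO replicate 1, BPK 4NQO replicate 2, PK 4NQO and BPK vehicle. Fxyd2 was at 82.4, 86, 30.8 and 220 CPM in Fgb-only members and at 19.6, 35.8, 16 and 33.7 CPM in Upk3a-only members of the same libraries. The Fgb-only value of BPK vehicle was near the 257 CPM of its 1806 cells with no marker UMI. Those cells are a mix of the 800 Prlr-positive cells and other luminal cells. The Prlr-positive cells alone had 443 CPM, well above the Fgb-only value. Deeper cells reach higher marker counts, so these groups also differ in depth, and they are given with no test.

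**Figure D4:**
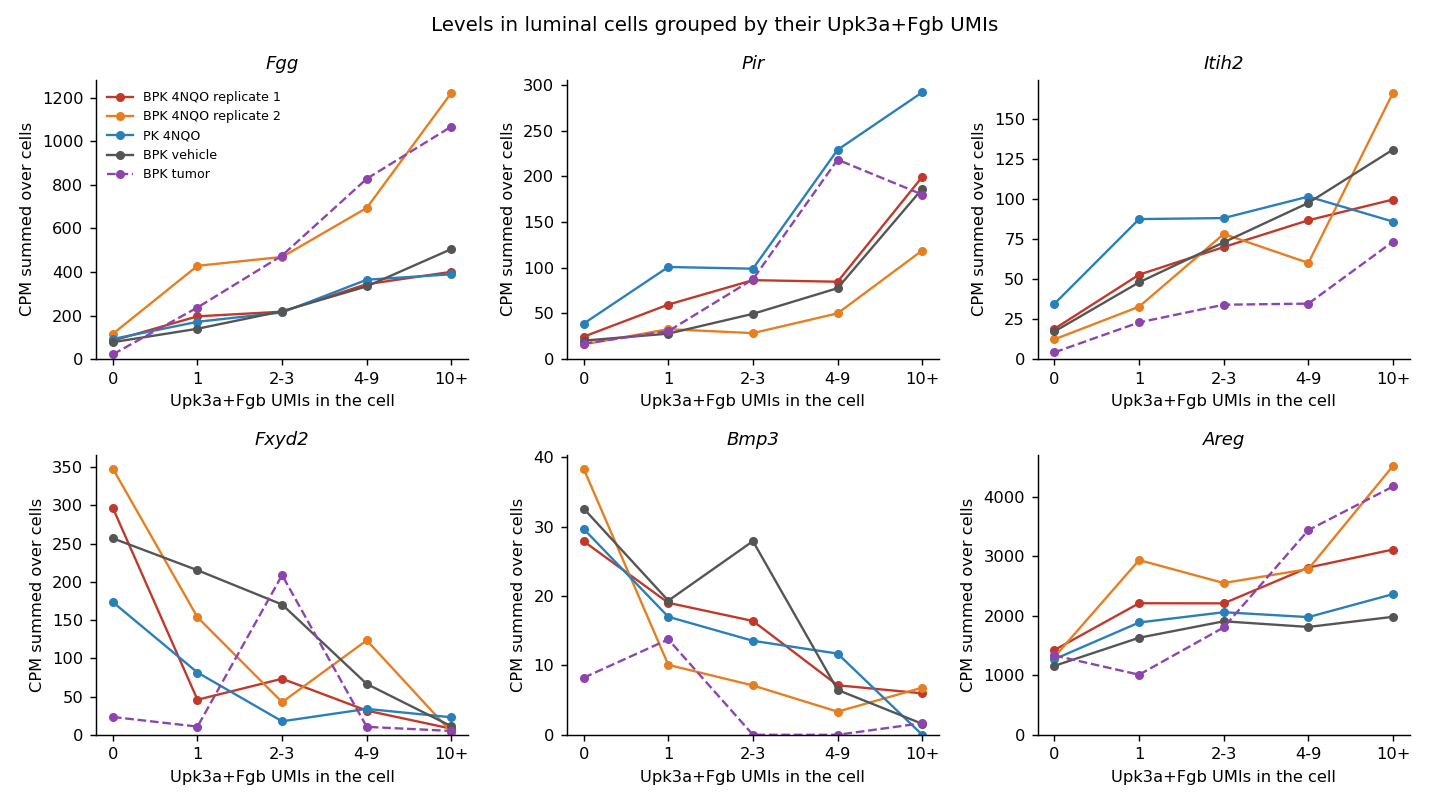
CPM of 6 genes summed over luminal cells grouped by their Upk3a plus Fgb UMIs (0, 1, 2-3, 4-9, 10 or more), 1 line per library, the tumor dashed. Pir climbs to 199, 119, 292 and 186 CPM in the top group of BPK 4NQO replicate 1, BPK 4NQO replicate 2, PK 4NQO and BPK vehicle, while Fxyd2 drops to between 3.4 and 22.9 CPM there.

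Hormone receptors were not higher in members. Of the 14 listed receptors and regulators of hormone-sensing cells 12 were tested, 3 were lower, none was higher (6.12% of all genes tested were called), and their median log2 fold change was -0.08. Gata3, a luminal transcription factor, fell by 0.61 (SE 0.091, adjusted p = 3.38e-04), Prom1, a surface marker of hormone-sensing cells, by 0.63 (SE 0.126, adjusted p = 4.07e-03), and Pgr by 0.45 (SE 0.095, adjusted p = 6.07e-03), all in edgeR's quasi-likelihood test. Pgr had 160 and 354 CPM in members of BPK 4NQO replicates 1 and 2, 135 in PK 4NQO and 72.3 in BPK vehicle, and it was lower in members than in Prlr-positive cells in 4 of 4 libraries. Esr1 averaged 69.4 ± 8.29 CPM in members and 76 ± 6.37 CPM in Prlr-positive cells (SD, n = 4 libraries), with a log2 fold change of -0.05 that did not pass. Foxa1, a co-factor of the estrogen receptor (-0.10), did not pass either. Prlr itself averaged 1890 ± 655 CPM in members and 2440 ± 699 CPM in Prlr-positive cells, but it chose the Prlr-positive cells.

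Of the 12 secreted mediators and hormone targets 5 were tested (of all genes tested, 3.4% were higher and 2.72% lower). Areg, the amphiregulin gene, was higher (0.38, SE 0.085, adjusted p = 9.69e-03, edgeR), and Tph1, the first enzyme of serotonin synthesis (-1.03, SE 0.145, adjusted p = 1.66e-04), and Wnt4 (-0.36, SE 0.08, adjusted p = 9.04e-03) were lower. Areg had 2645 and 3294 CPM in members of BPK 4NQO replicates 1 and 2, 2084 in PK 4NQO and 1904 in BPK vehicle, and its difference from Prlr-positive cells was 0.47, 0.73 and 0.25 on the log2 scale in the 4NQO libraries and -0.05 in BPK vehicle. Tnfsf11, the gene of Rank ligand, had no UMI in members of any gland library. Of 7 ligands of the EGF receptor family 5 were tested and 3 were higher (3.4% of all genes tested were): Areg, which is counted in both lists, Hbegf (0.59, SE 0.084, adjusted p = 1.77e-04) and Epgn (0.81, SE 0.219, adjusted p = 3.33e-02). Epgn was higher in 3 of 4 libraries only.

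Among uroplakins, Upk2 was the only one besides Upk3a with enough counts to be tested. It was lower in members, at 40.3 ± 5.97 CPM in members and 55.2 ± 10 CPM in Prlr-positive cells (SD, n = 4; log2 fold change -0.43, SE 0.096, adjusted p = 1.03e-02, edgeR). Upk1a and Upk1b averaged under 1 CPM in both groups and Upk3b had no UMI. Over all genes tested, 3.4% were higher and 2.72% lower. Of 14 keratins 8 were tested: Krt4 and Krt6a were higher, Krt14 (-0.58) and Krt15 (-0.73), which mark basal cells, were lower, and Krt5, Krt7, Krt17 and Krt19 did not pass. Basal markers, 9 genes, summed to 194, 287, 235 and 264 CPM in members of BPK 4NQO replicates 1 and 2, PK 4NQO and BPK vehicle. In Prlr-positive cells they summed to 300, 274, 590 and 362 CPM, and their part in the keratin decreases was not tested. Of 9 tested junction and mucin genes, the tight junction gene Cldn4 was higher (0.51, SE 0.065, adjusted p = 7.69e-05) and Muc15 lower (-0.63). None of 4 tested milk genes passed, and of 9 alveolar progenitor genes only Cd55 did (-0.58).

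Stress and immune lists moved in part. Over all genes tested, 3.4% were higher and 2.72% lower in members, against which the counts of these lists are to be read. Of 14 immediate early genes, all tested, 5 were higher and none lower: Klf6 (0.38), Klf4 (0.43), Ier3 (0.26), Jund (0.25) and Atf3 (0.24), the last 2 in 3 of 4 libraries only. The median over the list was 0.13, and Fos and Junb did not pass. Of 10 tested p53 targets 2 were higher, Trp53inp1 (0.69, SE 0.072, adjusted p = 9.15e-06) and Cdkn1a, the cell cycle inhibitor p21 (0.46, SE 0.104, adjusted p = 1.03e-02), the others not passing. Of 6 tested NRF2 targets Gclm, a subunit of the glutathione-making ligase, was higher (0.34). Interferon-stimulated genes had 17 tested, with Cxcl10 (1.20), Rtp4 (0.85) and Gbp2 (0.58) higher, Iigp1 (-0.53) lower and a list median of 0.31. Of 5 tested MHC class II genes 3 were lower: Cd74 (-0.91), H2-Aa (-0.77) and H2-Ab1 (-0.69). Cd74 averaged 39.1 ± 37.2 CPM in members and 80.6 ± 80.7 CPM in Prlr-positive cells (SD, n = 4). Macrophages carry these genes too, and the 6 macrophage markers summed to 6.7, 41.1, 7.5 and 9.6 CPM in members of BPK 4NQO replicate 1, BPK 4NQO replicate 2, PK 4NQO and BPK vehicle, against 34.7, 62.5, 10.1 and 16.9 CPM in Prlr-positive cells. Their part in the difference was not tested. None of 8 tested hypoxia and glycolysis genes passed.

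Cycling cells had been left out by the rule, and since the cycle genes and the markers both belong to it, their shares are given as a description with no test. Of cells that met every other condition, those with 3 or more of the 6 cycle genes were 7.61% and 7.63% in BPK 4NQO replicates 1 and 2, 5.04% in PK 4NQO and 24% in BPK vehicle, against 0.973%, 2.04%, 0.125% and 7.3% of Prlr-positive cells. After thinning to 2000 UMIs the shares were 4.73%, 3.7%, 2.43% and 8.45%, against 0.18%, 0.899%, 0% and 2.03%. The thinned BPK 4NQO replicate 2 value rests on 3 of 81 cells, and its exact interval of 0.77% to 10.4% covers the Prlr-positive value. Members that stayed under the limit still had more RNA of some replication genes the rule did not use. Of 5 tested proliferation genes 3 were higher, against 3.4% of all genes tested. Mcm6 (1.37, SE 0.212, adjusted p = 4.74e-04) and Mcm5 (1.14), of the replicative helicase, and Tyms (1.01), which makes thymidylate, passed in edgeR's test, and Mcm2 and Pcna did not. Levels were low: Mcm6 had 5.84 and 33.1 CPM in members of BPK 4NQO, 9.7 in PK 4NQO and 24.4 in BPK vehicle. Mcm5 had 0.835, 5.71, 3.23 and 12.8 CPM in the same order. The 6 cycle genes of the rule summed to 28.4, 42.3, 32.9 and 60.1 CPM in these members. In Prlr-positive cells they summed to 20.6, 31, 18.3 and 29.6 CPM. The part of cycling cells left among members was not tested.

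In the tumor, which had no part in choosing the genes, 61 cells met the rule, 5.12% of its luminal cells (3.94% to 6.52%), beside 85 Prlr-positive cells. With 1 library there is no test. Of 7262 tested genes with 10 CPM or more in the tumor 49.5% were lower in tumor members, while 68.1% of the genes lower in gland members were (145 of 213) and 54.8% of those higher in gland members were higher (170 of 310, against 50.5% of all). Of the named genes 8 of 10 decreases and 8 of 19 increases kept their direction. Fgg had 893 CPM in tumor members against 178 CPM in tumor Prlr-positive cells, Pir 173 against 47, Fxyd2 44.8 against 204 and Aoc1 22.8 against 146. Inhba went the other way, at 165 against 637 CPM, and so did Krt6a, at 699 against 918. A single tumor member held 73 of 74 UMIs of Wfdc12, and a single one 70 of 73 UMIs of Fstl1. Keratinocyte markers, 8 genes, summed to 1157 CPM in tumor members and 1497 CPM in tumor Prlr-positive cells, and to 98.1 to 146 CPM in gland members.

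Between conditions, few genes were called within the state. BPK 4NQO and BPK vehicle members differed in 11 of 10047 genes (0.109%), 9 higher (0.0896%) and 2 lower (0.0199%) in BPK 4NQO, and BPK 4NQO and PK 4NQO members in 6 (0.0597%), all higher in BPK 4NQO, by edgeR's quasi-likelihood test with Benjamini-Hochberg adjustment. BPK vehicle and PK 4NQO were 1 library each, the fit had 1 residual degree of freedom, and the comparisons share the BPK 4NQO libraries. In simulated counts the same fits found 61 and 27 of 100 genes changed by 1 on the log2 scale, and 99 and 98 of 100 changed by 2, against BPK vehicle and PK 4NQO. They also called 12 and 1 unchanged genes, with 9906 and 9892 genes tested. How many real changes these fits missed cannot be read from the simulation. In the real counts Cxcl10, at 3.465 (SE 0.931) against BPK vehicle, and Epgn, at 4.071 (SE 1.078) against PK 4NQO, were not called. DESeq2 called 3 and 1 genes.

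Ctsr (cathepsin R, a protease whose gene lies in a cluster of close copies on chromosome 13) passed in both comparisons. It had 182 and 379 UMIs in members of BPK 4NQO replicates 1 and 2 (76 and 433 CPM), 5 in PK 4NQO (2.69 CPM) and 19 in BPK vehicle (4.04 CPM). Both BPK 4NQO libraries were above both others. The log2 fold change was 5.69 against BPK vehicle (SE 1.302, adjusted p = 0.0157) and 6.21 against PK 4NQO (SE 1.398, adjusted p = 0.02). A UMI was present in 16 of 267 and 7 of 121 members of BPK 4NQO replicates 1 and 2 (5.99% and 5.79%). Single cells held 53.3% and 48.5% of the BPK 4NQO counts. Prlr-positive cells had 119 and 472 CPM in BPK 4NQO, 1.16 in PK 4NQO and 4.57 in BPK vehicle, with a UMI in 11.5% and 16% of BPK 4NQO cells. In those cells 10 of 11518 genes passed in each comparison (0.0868%), 7 higher (0.0608%) and 3 lower (0.026%) against BPK vehicle and all 10 higher against PK 4NQO, and Ctsr was among them with adjusted p-values of 0.0406 and 0.00728 in edgeR.

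Ubd, which encodes the ubiquitin-like protein FAT10, was also higher in both comparisons. Members had 86 and 52 UMIs in BPK 4NQO, 2 in PK 4NQO and 1 in BPK vehicle. Averaged over both BPK 4NQO replicates, its CPM was 224 times that of BPK vehicle (interval 40.2 to 8850, from the counting error of the BPK vehicle count alone) and 44.2 times that of PK 4NQO (12.2 to 365, likewise), with adjusted p-values of 3.04e-05 and 0.02 in edgeR. In Prlr-positive cells it was at 10.2 and 31 CPM in BPK 4NQO, 0.29 in PK 4NQO and 0.397 in BPK vehicle. A UMI was present in 6.37% and 9.09% of BPK 4NQO members.

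Several other calls rested mostly on single cells or on 1 library. For Cxcl9, called in both comparisons, 122 of the 137 UMIs of BPK 4NQO replicate 2 were in 1 cell, as described, and 13 of the 23 of replicate 1. Clca1 (adjusted p = 0.00426 against BPK vehicle) had 265 of 290 UMIs of replicate 2 in 1 cell, and Alox12e, a lipoxygenase (adjusted p = 3.04e-05 against BPK vehicle and 0.00136 against PK 4NQO), 68 of 86. Sprr2f, a cornified envelope gene, had 82 UMIs in BPK 4NQO replicate 1, in 5 cells, and 1 in replicate 2. The interferon-induced GTPase genes Ifi47 and Gbp8 had no UMI in BPK vehicle. Ifi47 was at 7.1 and 19.4 CPM in BPK 4NQO replicates 1 and 2 and Gbp8 at 2.92 and 29.7 CPM, with 12 of the 26 Gbp8 UMIs of replicate 2 in 1 cell. 5830416I19Rik had 30 UMIs in replicate 2 and none in replicate 1, and Gm26526, called against PK 4NQO, 37 and 6. They had a UMI in 21.5% and 24.8% of replicate 2 members and in 10.8% and 13.5% of its fibroblasts. Ccl8, called against PK 4NQO, is a transcript of the stroma, with a UMI in 29.3% to 34% of BPK 4NQO fibroblasts and in 3.37% and 14.9% of BPK 4NQO members. These genes outside the naming rule were chosen after their values were seen.

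The decreases were the skeletal muscle genes Acta1, with 1 and 0 UMIs in BPK 4NQO members, 7 in PK 4NQO and 163 in BPK vehicle, and Tnnc2, with 0 and 0, 7 and 68. A single cell held 52.8% of the Acta1 counts of BPK vehicle members. Acta1 also had a UMI in 9.62% of Prlr-positive cells and 8.52% of fibroblasts of that library, against 12% of its members.

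**Figure D5:**
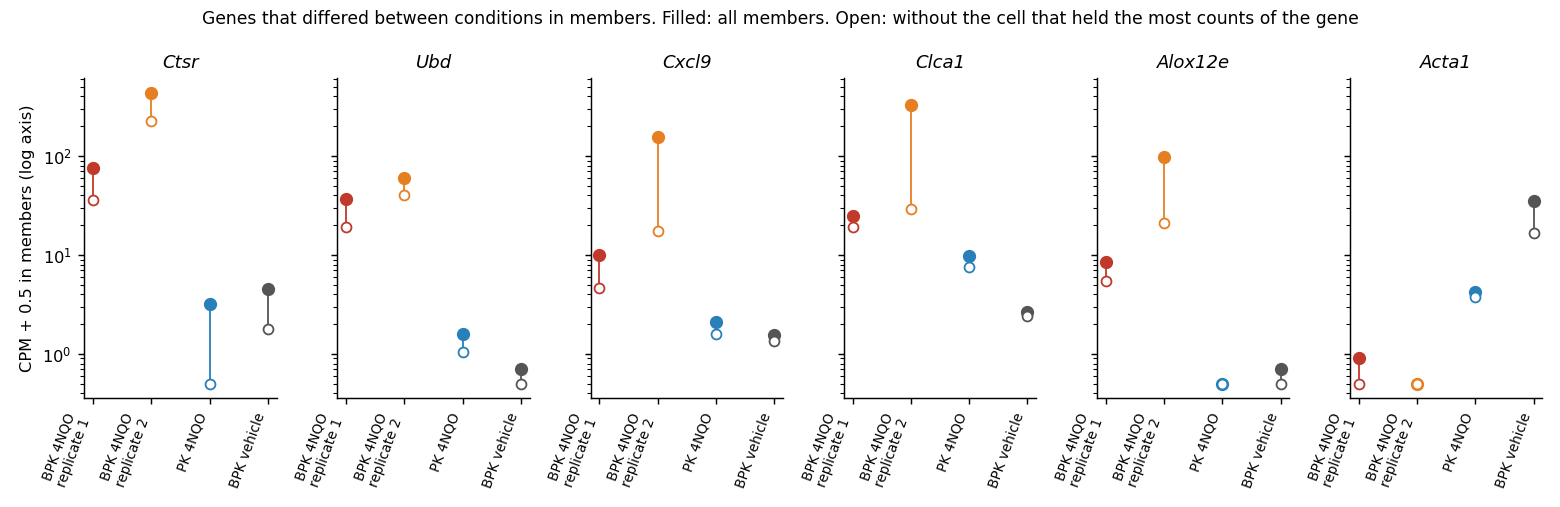
CPM + 0.5 (log axis) of 6 genes in members of the 4 gland libraries; filled points are all members, open points the same counts without the cell that held the most of them. For Cxcl9 and Clca1 the high BPK 4NQO replicate 2 point drops when 1 cell is left out, which held 89.1% and 91.4% of the counts, while Ctsr and Ubd stay above PK 4NQO and BPK vehicle in both replicates.

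No gene of the 16 lists passed between conditions. The interferon-stimulated genes had a median log2 fold change of 1.14 in BPK 4NQO against BPK vehicle members, with 17 of 18 above 0, while the median over all genes was 0.01. Against PK 4NQO members, Bst2 (-0.025) and Rtp4 (-0.12) were below 0 and the other tested genes of this list above 0. Iigp1, for example, was at 53.8 and 263 CPM in BPK 4NQO, 55.5 in PK 4NQO and 27 in BPK vehicle, with BPK 4NQO replicate 2 the high library. Replicate 1 lay nearer to BPK vehicle for some of the genes: Ifit1 was at 4.17 and 13.7 CPM in BPK 4NQO and 3.83 in BPK vehicle, and Rsad2 at 6.26 and 77.7 CPM and 14 CPM. Markers of several other cell types were also highest in replicate 2 members among the gland libraries, but keratinocyte markers were not (146 CPM in replicate 1 and 111 in replicate 2). The 4 T cell genes measured summed to 3.3 and 17.1 CPM in BPK 4NQO, 0 in PK 4NQO and 0.2 in BPK vehicle, the macrophage genes to 6.7, 41.1, 7.5 and 9.6 CPM and the fibroblast genes to 263, 506, 279 and 262 CPM, and their part was not tested. Proliferation genes had 8 tested, all below 0 against BPK vehicle, with a median of -1.05, while against PK 4NQO 5 of the 8 were above 0, with a median of 0.35. Rrm2 had 2.92 and 1.14 CPM in BPK 4NQO members, 1.08 in PK 4NQO and 13 in BPK vehicle.

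The difference between members and Prlr-positive cells was itself compared between BPK 4NQO and BPK vehicle. It differed in 81 of 9788 genes (0.828%) by the interaction term in edgeR's quasi-likelihood test, 49 larger (0.501%) and 32 smaller (0.327%) in BPK 4NQO, but in none by DESeq2, with 627 and 41 genes at an unadjusted p under 0.05. Among the genes named so far, the excess of Mt1 and Mt2 in members was smaller in BPK 4NQO, at 0.77 and 1.49 for Mt1 in its replicates against 1.77 in BPK vehicle (interaction -0.61, SE 0.103, adjusted p = 2.5e-06, edgeR). Il33 was higher in members by 0.94 and 0.37 in BPK 4NQO against 1.61 in BPK vehicle (interaction -0.91, SE 0.182, adjusted p = 2.22e-04). Areg went the other way, with 0.47 and 0.73 in BPK 4NQO against -0.05 in BPK vehicle (interaction 0.69, SE 0.102, adjusted p = 1.51e-08). With doublets left out 9 genes were called, Areg among them (adjusted p = 7.63e-03), Mt1 and Il33 not.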

How the data were processed

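Gene-by-barcode matrices of 5 libraries held UMI counts for 27998 genes, made by the authors with Cell Ranger 3.0.2 (PK 4NQO) or 5.0.1 (the others) on mm10, per the file headers. The deposited counts were used as they were, and 0 sample columns were left unused. The members and gene lists were chosen with earlier results of these data known, among them a cluster led by Upk3a, Fgb and Cited1 whose share differed between libraries. Doublets were marked with scrublet (scanpy 1.11.5, 0.8% per 1000 cells) and kept, and an alternative left them out. Fibroblasts were cells within the quality limits with 5 or more UMIs of Col1a1, Col3a1 and Dcn and none of Krt8, Krt18, Ptprc or Pecam1. Counts summed per library and cell group were tested with edgeR 4.0.16 (filterByExpr, TMM, quasi-likelihood, Benjamini-Hochberg, threshold 0.05), the state with library as a block (3 residual degrees of freedom), conditions and the interaction with 1. DESeq2 1.42.0 was an alternative. Tested on simulated data, the state fit found 100 of 100 genes changed by 1 on the log2 scale. Named genes were the 20 largest increases and 12 largest decreases past the threshold, with 32 CPM or more in the higher group and 1 side in every library, and up to 10 on each side between conditions. Rule genes were not tested. Intervals cover counting error only.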

Additional observations from a re-analysis of the deposited data

Results flagged for a closer look

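For 17 of the named or listed genes, the difference between members and Prlr-positive cells was itself different in BPK 4NQO and BPK vehicle by the interaction term in edgeR's quasi-likelihood test. Values are the difference of the log2 differences, BPK 4NQO minus BPK vehicle. The metallothioneins Mt2 (-0.745) and Mt1 (-0.611), the alarmin Il33 (-0.908), the interferon-induced Rsad2 (-1.535) and Isg15 (-1.242) and the MHC gene H2-T22 (-0.983) had a smaller or more negative difference in BPK 4NQO. The growth factors Areg (0.695) and Btc (1.061), the AP-1 genes Fos (0.374), Jun (0.391), Fosb (0.438) and Jund (0.514), the hormone-sensing genes Ly6a (0.583), Stc2 (0.658) and Prom1 (0.789), the keratin Krt7 (0.645) and the haptoglobin gene Hp (0.82) had a more positive one. BPK vehicle is 1 library and the fit has 1 residual degree of freedom. With doublets left out, Areg (adjusted p = 0.00763) and Stc2 (0.0462) still passed in edgeR and the other 15 did not, and DESeq2 gave an adjusted p of 1.0 for all 17.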

How the results depend on the processing

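Against 599 genes in the state comparison, DESeq2 called 212, cells of 3000 to 15000 UMIs 395, members chosen by 2 or more Fgb UMIs 285, all luminal cells without the markers as comparison 3004, and a fit with no library term 2. Leaving out 1 library gave 339 to 482. Of the named genes' directions 1 reversed, Prkcdbp at -0.117 with all luminal cells as comparison. The cause was not tested. Within members, 11 genes against BPK vehicle became 3 by DESeq2, 3 with 4 or more marker UMIs and 0 in edgeR with no filter on low counts (72 at an unadjusted p under 0.05). The 6 against PK 4NQO became 1 by DESeq2, 1 with 4 or more marker UMIs, 3 without doublets and 0 in edgeR with no filter (64 unadjusted). The 81 interaction calls became 47 with relative log expression factors in edgeR, 9 without doublets and 0 by DESeq2 (41 unadjusted).

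The log2 share ratio of BPK 4NQO to BPK vehicle, -0.726, was -0.936 after thinning, -0.535 with 1 or more and -0.945 with 4 or more marker UMIs, -0.786 with no milk limit, -0.743 without doublets, -1.378 of all cells past the quality limits, -1.134 of members plus Prlr-positive cells and -1.454 of these after thinning, the last chosen after seeing the data. To PK 4NQO, -0.236, it was -0.126, -0.217, -0.049, -0.462, -0.239, -0.871, -0.601 and -0.636 in the same order, and after thinning the replicates lay on either side of 0 (-0.412 and 0.161). Members and Prlr-positive cells were paired by library. Libraries of different conditions could not be paired, because BPK vehicle and PK 4NQO have 1 library each. Conditions rest on 1 library each for BPK vehicle and PK 4NQO, so a difference between those animals and a difference between conditions cannot be told apart.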
